A study of Homo sapiens with 4 samples.

Results

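The cytidines described here lie in 4 collagen genes: COL6A1, COL6A2 and COL6A3, which encode the chains of collagen VI, and COL12A1, which encodes the chain of collagen XII. All lines of the deposited tables that name 1 of these genes were taken, with each position counted once per gene. The genes are 4 of the 6112 genes named in either table and hold 43 distinct positions of 17862, of which 31 were listed after TGF-β1 and 21 in control. They were chosen with the listed counts of some of them known, so their counts and levels are given as a description, with no test. LX-2, of wild-type genotype per the labels, is a permanent cell line derived from human hepatic stellate cells. The study compared 2 libraries of LX-2 cells given human recombinant TGF-β1 (5 ng/ml for 24 h) with 2 libraries of untreated LX-2 cells, all described as biological replicates of this single line. The assay exposes polyadenylated RNA to NaBH4, sodium borohydride, a reducing agent that turns ac4C (N4-acetylcytidine, a modified RNA base) into a form that can be misread during reverse transcription. No library is labelled as made without NaBH4 or without the acetyltransferase NAT10, and a listed cytidine is therefore a C mismatch and was not shown here to be ac4C.

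Collagen VI is a microfibrillar collagen that surrounds cells and links them to the matrix around them. Its α1, α2 and α3 chains join inside the cell into a monomer, which pairs into dimers and tetramers that are secreted and assemble into beaded filaments. The α3 chain is much longer than the other two, and a fragment released from its C-terminal end, endotrophin, is studied as a marker and mediator of fibrosis. Collagen XII is a FACIT, a collagen with interrupted triple helices that sits on the surface of collagen I fibrils and bridges them to other matrix proteins. Activated stellate cells are the main source of matrix collagen in the fibrotic liver.

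The tables give 1 value per cytidine and group, the authors' mismatch difference, printed here in percent, with 1 p-value of the authors. They hold no reads, depths or values per library. No value thus has a replicate error or an interval, and differences between TGF-β1 and control could not be set against the spread between cultures. There were 11735 positions after TGF-β1 and 8112 in control, a ratio of 1.45. Every listed position has an authors' p-value below 0.05 and a mismatch difference of at least 1%, and no level is known where a table does not list a cytidine. Transcript levels are not in the tables. More listed positions can go with more reads of a transcript, fewer cells expressing a gene cannot be told apart from less RNA per cell, and the part of either in the counts below was not tested. Of 15 marker genes of stellate cells and myofibroblasts, 9 had a listed position, among them COL1A1, ACTA2 and PDGFRB, and DES, LRAT and POSTN had none. None of 7 hepatocyte markers and none of 5 endothelial markers had one. SOX9 was the single listed marker of 4 for cholangiocytes and CD68 the single one of 5 for macrophages and leukocytes.

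The 4 genes differed in their counts. COL6A2 had 18 positions after TGF-β1 and 4 in control. COL6A1 had 9 after TGF-β1 and 8 in control. COL6A3 had 4 after TGF-β1 and 6 in control, and COL12A1 had 0 after TGF-β1 and 3 in control. The share of all 6112 genes with more positions after TGF-β1 was 51.2% and the share with fewer was 35.3%. With 4 genes, a split of 2 with more and 2 with fewer is too small a set to compare with these shares. The excess of 1 position in COL6A1 was not kept under 3 of 7 other ways of filtering the tables, which gave equal numbers, and COL6A3 had 4 and 4 when positions with an authors' p-value of exactly 0 were left out. The ratio over the 4 genes together was 1.48, close to the 1.45 of the whole tables, and COL6A2 supplied 18 of the 31 positions after TGF-β1. Per 10 kb of gene span, introns included, COL6A2 had 5.18 positions after TGF-β1 and 1.15 in control, and COL6A1 had 3.87 and 3.44. COL6A3 had 0.443 per 10 kb after TGF-β1 and 0.664 in control. The 3 control positions of COL12A1 came to 0.246 per 10 kb. Exon lengths were not used, so these values do not compare the genes by positions per length of transcript.

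**Figure D1:**
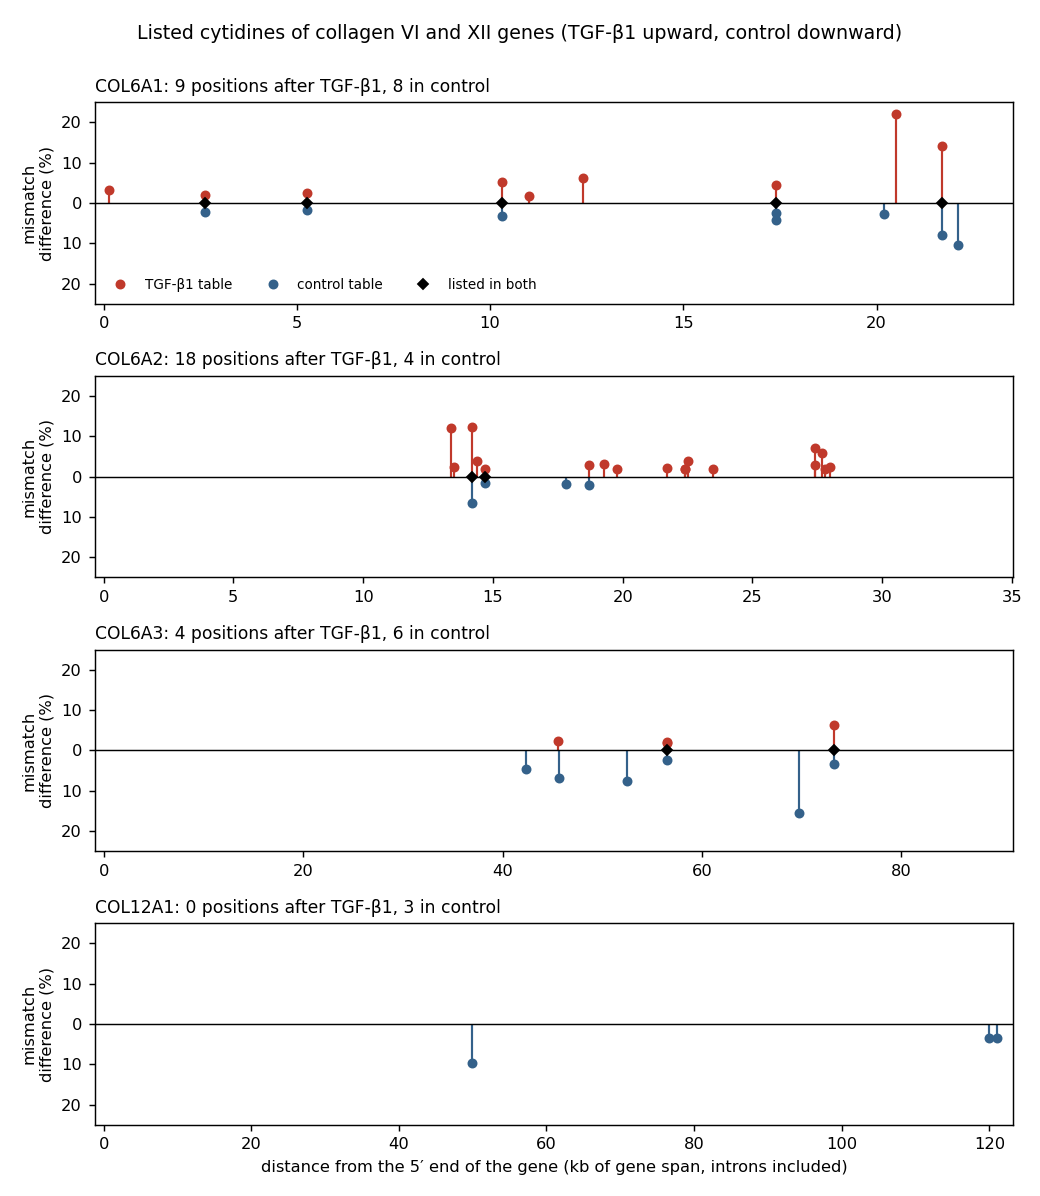
Each panel shows 1 gene, with the distance from its 5′ end in kb of gene span on the x axis and the mismatch difference in percent on the y axis, for TGF-β1 upward (red) and control downward (blue); black diamonds mark positions listed in both tables. The 18 TGF-β1 positions of COL6A2 lie between 13.4 and 28.0 kb, the highest TGF-β1 values of COL6A1 lie near its 3′ end, and COL12A1 has control positions alone.

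COL6A1 (ENSG00000142156) spans 23.3 kb on the plus strand of chromosome 21, from 45981770 to 46005050 of hg38. Its 12 listed positions were all annotated as coding sequence, and 5 of them were in both tables. The highest values stood towards the 3′ end. At position 46002259 the mismatch difference was 22.1% after TGF-β1, higher than at 96.7% of all TGF-β1 positions, and control had no listed value there. At position 46003511 it was 14.1% after TGF-β1 and 8.0% in control, a difference of 6.11 points, and the authors' p-value was exactly 0 in both tables. At position 46003889, nearer still to the 3′ end, nothing was listed after TGF-β1 and 10.4% in control. These 3 positions lie from 88.0% of the span onward, where both tables thus held a high value.

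The other COL6A1 positions in both tables had lower values. Position 45992027 had 5.21% after TGF-β1 and 3.29% in control. Position 45999171 had 4.48% after TGF-β1 and 2.47% in control, and position 45987021 had 2.54% and 1.80%. Only position 45984397 of the 5 was lower after TGF-β1, at 1.91% against 2.24% in control. The C next to position 45999171, at 45999170, was listed in control alone at 4.15%, so the TGF-β1 table held 1 and the control table both of a pair of adjacent cytidines. Control alone also listed position 46001968 at 2.83%. TGF-β1 alone listed position 45981906 at 3.30%, position 45992788 at 1.72% and position 45994191 at 6.16%. The first of these lies 0.136 kb from the gene's start and has an authors' p-value of exactly 0.

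COL6A2 (ENSG00000142173) lies 93.1 kb downstream of COL6A1 on the same strand, from 46098112 to 46132848, a span of 34.7 kb. It was the collagen gene with the second highest count after TGF-β1, behind COL4A2, and its count ranked 13 among all genes listed after TGF-β1, a place shared by 3 genes. Of its 20 distinct positions 16 were in the TGF-β1 table alone, 2 in control alone and 2 in both. Of the 210 genes with 4 control positions, 2 (0.952%), COL6A2 and AEBP1, had 18 or more after TGF-β1, and the median of the 209 others was 4. The cut of 18 is the count of COL6A2 itself, which thus meets it by construction, so the share does not measure how rare its count is. Among the 209 others, 81 had more after TGF-β1 than in control and 103 had fewer. They were picked by their control count, and over all listed genes 51.2% had more and 35.3% fewer. Of the 41 genes with 20 or more positions over both tables, 85.4% had more after TGF-β1. That cut-off uses the same counts that are compared, and COL6A2 passed it through its TGF-β1 count, so the share is no separate background. The counts of COL6A2 are what it was chosen on.

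Most of the COL6A2 positions listed after TGF-β1 had low values. The 18 TGF-β1 positions were between 1.81% and 12.3% with a median of 2.65%, and 14 of them were below 4.68%, the median of the TGF-β1 table. The 4 control positions were between 1.59% and 6.47% with a median of 1.92%, and 3 of them were below the control table's median of 4.05%. Both shared positions were higher after TGF-β1. Position 46112288 had 12.3% after TGF-β1 and 6.47% in control, a difference of 5.87 points, and was the highest value of the gene in each table. Position 46112807 had 2.0% after TGF-β1 and 1.59% in control. The 2 positions in control alone, 46115906 at 1.86% and 46116796 at 1.98%, were higher than 10.4% and 12.8% of the control table.

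The COL6A2 positions listed after TGF-β1 alone are given in order along the gene, by genomic coordinate with introns included. At its 5′ side, position 46111469, annotated as 5′UTR, had 12.2%, position 46111584 had 2.51% and position 46112467 had 4.03%. The authors' p-value was 0.0141 at position 46111469 and 0.0238 at position 46111584, against 2.72e-13 after TGF-β1 at position 46112288, which had a like level. Positions 46111469 and 46111584 also lie within LOC124905043, a lncRNA gene of the RefSeq table whose strand was not used here. In the middle of the span, position 46116786 had 2.87%, position 46117432 had 3.20%, position 46117907 had 2.04% and position 46119793 had 2.29%. Position 46116786 lies 10 bases from the control-only position 46116796, so each table listed a different cytidine of the same short stretch. A run of 3 cytidines followed, the last of them 29 bases from the first, at 46120545 with 2.0%, at 46120549 with 1.81% and at 46120574 with 4.01%, and then position 46121588 with 1.90%. Towards the 3′ side, position 46125508 had 7.12%, position 46125543 had 2.80%, position 46125805 had 6.01%, position 46125897 had 1.89% and position 46126086 had 2.44%. All positions other than that in the 5′UTR were annotated as coding, and none lay beyond 80.5% of the span.

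COL6A3 (ENSG00000163359) spans 90.3 kb on the minus strand of chromosome 2, from 237324003 to 237414328. Its 8 positions were all coding and lay between 47.0% and 81.1% of the span from the 5′ end. Unlike in COL6A2, the higher values were in control. Position 237344654 was not listed after TGF-β1 and had 15.5% in control, higher than 95.4% of the control table and with an authors' p-value of exactly 0. Position 237361785 with 7.51%, position 237368674 with 6.86% and position 237371901 with 4.60% were in control alone too. The median was 2.33% over 4 positions after TGF-β1 and 5.73% over 6 in control. Only 2 positions were in both, so these medians are mostly over different cytidines and give no change in level.

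Both tables listed 2 COL6A3 positions, and these went different ways. Position 237341092 had 6.2% after TGF-β1 and 3.35% in control, with an authors' p-value of exactly 0 in control. Position 237357870 had 2.20% after TGF-β1 and 2.40% in control. TGF-β1 alone listed position 237357865, 5 bases away, at 1.88%, and position 237368729 at 2.45%. Position 237368729 lies 55 bases from the control-only position 237368674. Of the 52 other genes with 6 control positions, 30 had fewer after TGF-β1 and 17 had more, so COL6A3 went the more frequent way among these. They were picked by their control count, and over all listed genes 51.2% had more and 35.3% fewer.

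COL12A1 (ENSG00000111799) spans 122 kb on the minus strand of chromosome 6, from 75084326 to 75206267, and was absent from the TGF-β1 table, as were 27.3% of all listed genes. In control, the coding position 75156410 had 9.63%, higher than at 86.5% of the control table, with an authors' p-value of 2.82e-19. The 3′UTR positions 75086420 and 75085425 had 3.48% and 3.35%, with authors' p-values of 0.0216 and 2.65e-12. With p below 0.001, 2 control positions of COL12A1 were left. Of all 438 genes with 3 control positions, 97 (22.1%) had none after TGF-β1. Among the 59 others with a span of 100 to 200 kb, 24 had none after TGF-β1. Without depth, whether the COL12A1 transcript was read deeply enough after TGF-β1 cannot be told.

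At the 9 positions listed in both tables, 7 were higher after TGF-β1 (77.8%), against 78.4% of all 1985 such positions. Their median was 4.48% after TGF-β1 and 2.47% in control, and the median difference was 1.93 points with a range from -0.33 to 6.11. Over all shared positions the median difference was 1.73 points. The median log2 ratio of TGF-β1 over control was 0.66 at the collagen positions and 0.58 at all. Without positions of p exactly 0, which leaves 7 collagen positions, their median difference was 0.75 points, against 1.68 points over all shared positions. The 2 shared positions with the highest levels, in COL6A1 and COL6A2, had the largest differences in points, 6.11 and 5.87, and their log2 ratios were 0.82 and 0.93. At lower levels, position 237341092 of COL6A3 and position 45999171 of COL6A1 had log2 ratios of 0.89 and 0.86. The remaining shared positions had 0.66 or less. Of the TGF-β1 positions of the 4 genes 29.0% recurred in control, against 16.9% of all TGF-β1 positions and 22.5% of those in genes listed in both tables. Of their control positions 42.9% recurred after TGF-β1, against 24.5% of all control positions. In the 3 collagen VI genes, which both tables list, 9 of 18 control positions recurred, against 34.7% over the genes listed in both tables.

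**Figure D2:**
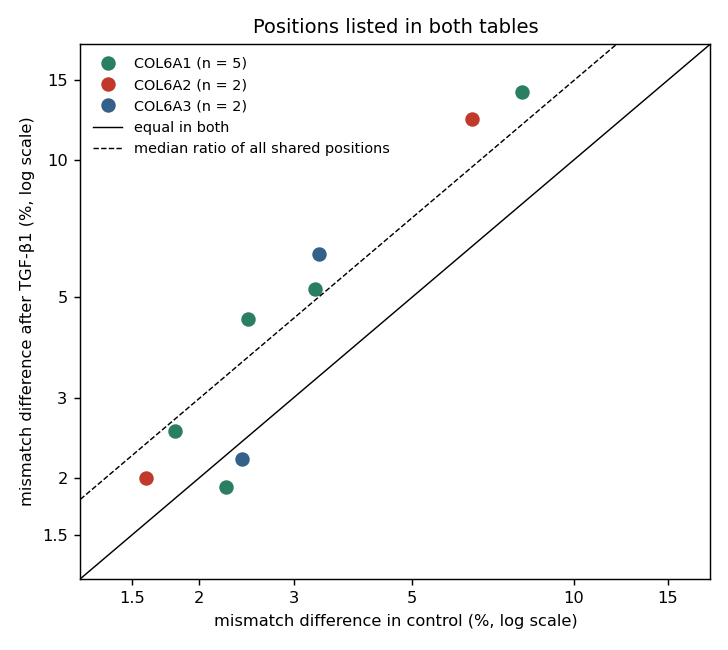
Each point is 1 of the 9 positions listed in both tables, with the mismatch difference after TGF-β1 on the y axis and in control on the x axis, both in percent on log scales; the solid line marks equal values and the dashed line the median log2 ratio of all shared positions, 0.58. 7 points lie above the solid line, and 1 position each of COL6A1 and COL6A3 lies just below it.

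Positions in 1 table alone differed by gene. In COL6A2 their median was 2.65% over 16 positions after TGF-β1 and 1.92% over 2 in control, in COL6A1 4.73% over 4 and 4.15% over 3, and in COL6A3 2.17% over 2 and 7.19% over 4. Over all genes such positions had a median of 4.47% after TGF-β1 and 4.14% in control. Values of 10% or more were listed at 4 of 31 positions after TGF-β1 and at 2 of 21 in control, where 18.5% and 12.4% of all positions reached that level. By location, 40 of the 43 positions (93.0%) were coding, 1 was in a 5′UTR and 2 in a 3′UTR, and 75.3% of all distinct positions were coding. At a matched range of mismatch difference, the authors' p-value was below the median of all positions at 19 of 31 positions after TGF-β1 and at 14 of 21 in control. In COL6A2 this held at 11 of 18 positions after TGF-β1 and at 3 of 4 in control. Close neighbours were about as frequent as elsewhere. After TGF-β1, 4 of 31 positions (12.9%) had another listed position of the gene within 10 bases, against 14.1% over all genes, and in control 2 of 21 (9.52%), against 10.7%.

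The direction of the counts followed gene span across the tables. Of genes with a span of 20 to 50 kb, which include COL6A1 and COL6A2, 53.8% had more after TGF-β1 and 32.3% fewer. Of genes of 50 to 100 kb, the class of COL6A3, 40.3% had more and 46.2% fewer, and of genes of 100 to 200 kb, the class of COL12A1, 28.7% had more and 58.2% fewer. By direction alone, COL6A1, COL6A3 and COL12A1 each went the more frequent way of their class, as did COL6A2. The ratio of TGF-β1 over control positions was 1.63 over the class of 20 to 50 kb, 4.5 in COL6A2 and 1.12 in COL6A1. Of the 69 other genes of that class with 4 control positions, a set picked by control count, 29 had more and 33 fewer. The part of gene span in the counts was not tested. On chromosome 21, 112 positions were listed after TGF-β1 and 99 in control over 70 genes, a ratio of 1.13. COL6A2 and COL6A1 held 27 of the 112 and 12 of the 99.

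**Figure D3:**
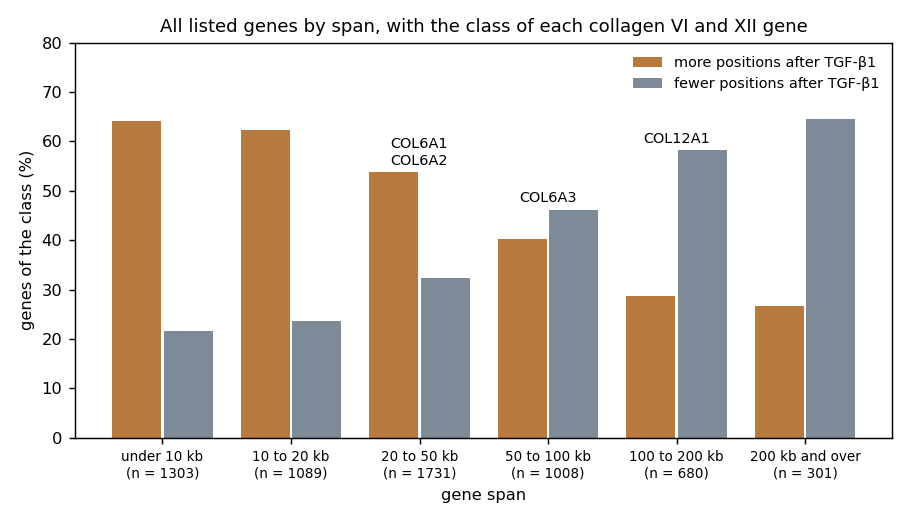
Bars give the percent of genes in each class of gene span that had more (brown) or fewer (grey) listed positions after TGF-β1 than in control, with the number of genes under each class and the collagen VI and XII genes written above theirs. The share with more goes down from 64.2% under 10 kb to 26.6% at 200 kb and over.

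Other collagen genes were set beside these 4. Of 12 other listed collagen genes, more positions after TGF-β1 than in control were present in 8, fewer in 3 and equal numbers in 1, with 97 positions after TGF-β1 and 49 in control, a ratio of 1.98. Over all listed genes 51.2% had more and 35.3% fewer, and the ratio of positions counted per gene was 1.46. Among fibrillar collagens, COL5A1 had 16 positions after TGF-β1 and 8 in control, COL5A2 11 and 9, COL1A1 10 and 4, and COL27A1 1 and 1. Among basement membrane collagens, COL4A2 had 26 after TGF-β1 and 9 in control, COL4A1 13 and 5, COL18A1 10 and 4, and COL7A1, the anchoring fibril collagen, 9 and 3. The 3 genes with fewer were COL13A1, a transmembrane collagen, with 0 after TGF-β1 and 4 in control, COL16A1, a FACIT like collagen XII, with 0 and 1, and COL8A1 with 0 and 1. COL6A5 and COL6A6, the alternative chains of collagen VI, had no listed position. Of the 8 other collagen genes with a span of 100 kb or more, more positions after TGF-β1 were present in 5 and fewer in 2. The 5 were COL4A2, COL5A1, COL4A1, COL5A2 and COL18A1. Of all genes of 100 to 200 kb, 28.7% had more and 58.2% fewer, and of those of 200 kb and over 26.6% and 64.5%. COL13A1 (162 kb) and COL8A1 (161 kb) went the way of COL12A1.

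**Figure D4:**
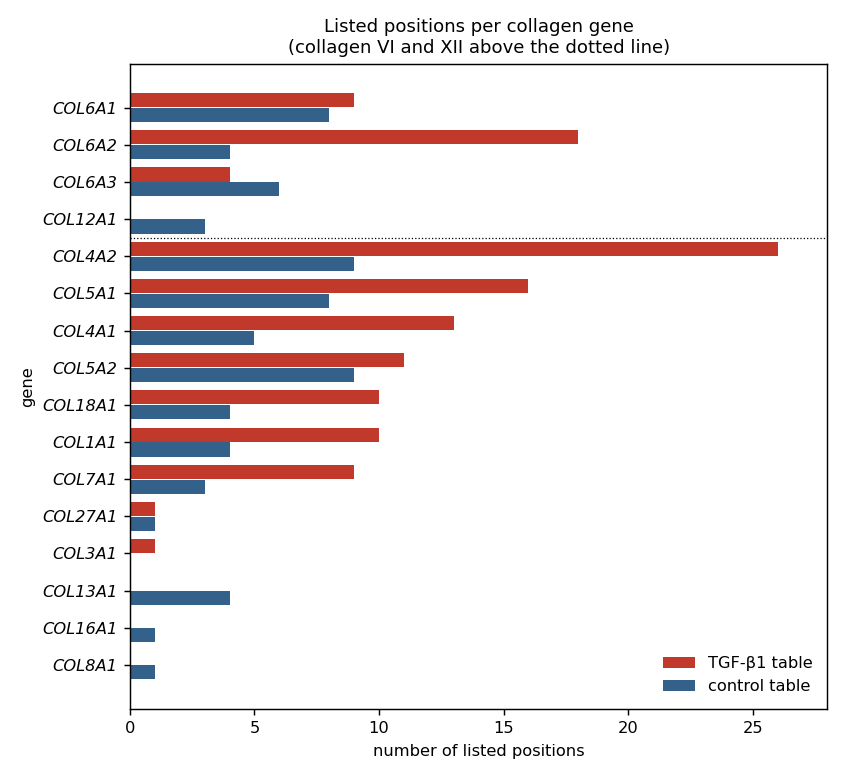
Bars give the number of listed positions after TGF-β1 (red) and in control (blue) for each collagen gene in either table, with the genes of collagen VI and XII above the dotted line. COL6A2 has 18 and 4 positions and COL4A2, below the line, has 26 and 9, and COL12A1, COL13A1, COL16A1 and COL8A1 have control bars alone.

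Receptors, partners and proteases of collagen VI and XII were divided. Of 23 such genes 9 were listed, 6 with more positions after TGF-β1 and 3 with fewer, where 51.2% and 35.3% of all listed genes did so. FN1, fibronectin, had 16 positions after TGF-β1 and 8 in control. TNC, tenascin-C, had 11 after TGF-β1 and 9 in control, and ITGA3, an integrin subunit, had 13 and 5. CSPG4, the NG2 proteoglycan that binds collagen VI, had 8 and 4. The 3 with fewer were picked out after their values were seen: ANTXR1, a cell surface receptor that binds collagen VI, with 1 after TGF-β1 and 4 in control, its relative ANTXR2 with 0 and 1, and HSPG2, perlecan, with 0 and 1. Of 27 genes of collagen biosynthesis and export 18 were listed, 15 with more and 2 with fewer, with 70 positions after TGF-β1 and 32 in control, a ratio of 2.19 against 1.46 over all genes. LOXL2, a lysyl oxidase, had 9 and 4, P4HB, a subunit of the prolyl hydroxylase, 7 and 5, and PLOD1, a lysyl hydroxylase, 6 and 3. SERPINH1, the collagen chaperone HSP47, FKBP10, a prolyl isomerase, and SEC13, a COPII coat protein, each had 6 and 2. The 2 with fewer, also picked out after their values were seen, were MIA3, the receptor that loads procollagen for export, and SEC31A, a COPII coat protein, each with 0 after TGF-β1 and 1 in control. The median log2 ratio of counts, with 0.5 added to each, was 0.74 for the partners and 0.87 for the biosynthesis genes, against 0.36 over all genes.

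By their pair of counts alone, 1 value per group, the genes most like COL6A2 were AEBP1 with 18 positions after TGF-β1 and 4 in control, LMNB2 with 17 and 4, and CAVIN1 with 17 and 2. Those most like COL6A1 were UPF1 with 9 and 8, SMARCA4 with 9 and 9, and ZC3H7B with 8 and 8. COL6A3 shared its counts with 6 genes, of which SLC2A4RG, TIMELESS and TNNT1 were nearest in median mismatch difference after TGF-β1. COL12A1 shared its counts with 96 genes, of which IQSEC1, GFM1 and DIDO1 were nearest in the median of control.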

How the data were processed

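Per the labels' protocols, polyadenylated RNA of LX-2 cells was used. The submitters' processing notes name STAR 2.7.6a, fastp 0.23.1 and featureCounts, and build hg38. How cytidines were called and filtered and how replicates were combined is not given in the sources used here. Each group has 1 deposited table that holds, per the file headers, a mismatch difference (a fraction by its range, printed as percent) and a p-value per cytidine. What is subtracted from what, and whether the p-value was adjusted, is not stated. Lines were merged to 1 per position and gene (Python 3.11.15, pandas 2.3.3). Start and end differ by 1 base and the end is printed. At 334 positions inside RefSeq windows at gene starts (GRCh38.p14) the base at the end on the annotated strand was C in 334, against 17.7% and 12.5% one base to either side. None of these positions lies in the 4 genes, and no sequence around their cytidines was analysed here. Members, lists and alternatives were chosen with earlier results of these data known. Named were all members, up to 4 genes per list with most positions (more where tied), and up to 3 genes per member nearest in counts. List members with fewer positions after TGF-β1 were picked out after their values were seen. The tables hold no values per library, so no test was made and depth is unknown. The merging and counting steps were tested on simulated data.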

Additional observations from a re-analysis of the deposited data

How the results depend on the processing

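COL6A2 kept more positions after TGF-β1, and COL12A1 fewer, under all 7 alternatives. COL6A3 had fewer after TGF-β1 under 6 and equal numbers, 4 and 4, without positions of p exactly 0. COL6A1 had equal numbers under 3: 7 and 7 with a mismatch difference of at least 2%, 8 and 8 when the 8112 TGF-β1 positions of lowest p were kept, as many as in control, and 7 and 7 without positions of p exactly 0. Its excess of 1 position thus depends on these choices. With that list COL6A2 had 14 and 4, and 39.0% of genes had more positions, against 51.2% with the full list. A mismatch difference of at least 5% left 9 positions of the 4 genes after TGF-β1 and 7 in control, 4 and 1 of them in COL6A2, since most positions lie below that level. Without positions of p exactly 0, 1 control position of 10% or more was left, and the median difference at the shared positions of these genes was 0.75 points over 7 positions. No other count over the 4 genes together moved by more than 1.5 times. Leaving out a replicate was not run, since the tables hold 1 value per group. No paired analysis was possible because the columns carry no replicate numbers.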
